A study of Mus musculus with 6 samples.

Results

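The glycolysis and lactate genes are the enzymes that split glucose into pyruvate, the enzymes and carriers that make and move lactate, and the kinases that steer pyruvate. They were chosen by symbol, as 33 mouse genes, and all 33 were found among the 53700 gene rows of the deposited count table and passed the filter on low counts. The samples were bulk colon tumours of mice, profiled by RNA sequencing, with 3 tumours in each of 2 groups. The APC-KI mice had recovered from cachexia, the wasting that accompanies advanced cancer, after 6 weeks on doxycycline, which in this genotype represses Tcf7l2 throughout the body. The APC-WT mice were cachectic after 10 days on doxycycline and kept endogenous Tcf7l2 expression. Both groups ate pellets with 100 mg/kg doxycycline, so genotype, length of treatment and recovery cannot be told apart here. The labels give neither the age nor the sex of the animals, and nothing states that the tumours of a group came from separate mice, so p values measure the spread between these samples. Fewer cells of a type and less RNA per cell also cannot be told apart in bulk tumours.

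Glycolysis runs in an investment phase, in which hexokinase traps glucose as glucose-6-phosphate and phosphofructokinase commits it, and a pay-off phase from glyceraldehyde-3-phosphate to pyruvate, which yields ATP and NADH. Tumours often keep glycolysis high in the presence of oxygen and reduce pyruvate to lactate, which leaves the cell through monocarboxylate transporters. In the intestine, the genes of this pathway respond to hypoxia-inducible factors, to MYC and to Wnt signalling, and differentiated colonocytes rely largely on fatty acids such as butyrate as fuel. Most steps have several isozymes, each with its own tissue pattern.

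The libraries held between 54895823 and 56825956 counts in APC-KI tumours and between 51777342 and 63921108 counts in APC-WT tumours. Tcf7l2 itself stood at 4.48, 6.91 and 5.34 CPM in APC-KI tumours and at 44.1, 43.8 and 35.6 CPM in APC-WT tumours, where CPM is the count scaled to sequencing depth with TMM factors. Y-linked transcripts were found in APC-WT replicates 1 and 2 (19164 and 16055 counts) and in none of the other 4 libraries. The presence of Y-linked counts therefore moves with group in part. Results are also given for the 4 libraries that lack them. There the group APC-WT has 1 tumour, and its spread is taken to be that of the APC-KI tumours.

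Of the 33 genes, 5 were higher and 0 lower in APC-KI tumours at an adjusted p under 0.05 (edgeR quasi-likelihood test, Benjamini-Hochberg over the 19127 genes tested). The 5 were the glucose transporter Slc2a1, the hexokinases Hk1 and Hk2, the platelet-type phosphofructokinase Pfkp and the aldolase Aldoa. All 5 stand between glucose entry and the aldolase step, as do uncalled members such as Hk3, Gpi1 and Pfkl. Of the 10 genes from Gapdh to the lactate dehydrogenases, 0 were called. Across all genes tested, 12.5% were called higher and 7.63% lower. The 15.2% of members called higher lay near that background, as did the 0 of 10. The uncalled Pgk1 and Ldha had log2 changes of 0.30 and 0.27, beside 0.35 for the called Aldoa. At an unadjusted p under 0.05, 12 members were higher and 2 lower, where the transcriptome had 21.2% higher and 16.7% lower. Limma-voom called 5 higher and 0 lower, beside 12.9% and 7.55% of all genes, and DESeq2 9 higher and 1 lower, beside 15.1% and 10%. With library totals in place of TMM factors, 4 members were higher and 3 lower, beside 10.3% and 14.9% of all genes, and the median of all genes moved to -0.132. The median log2 change was 0.27 over the members and -0.016 over all genes. The 2 groups did not overlap for 13 members that were higher and 2 that were lower in APC-KI tumours, where 23% and 21.5% of all genes did the same. A positive change was found for 24 of the 33 members and for 48.5% of all genes. The count of higher members rested on single libraries. It was 11 without APC-KI replicate 3, where 11.9% of all genes were higher, and 3 without APC-WT replicate 2, where 4.02% were. Over the 4 libraries lacking Y-linked counts, 0 members were called by edgeR, and 0.872% of all genes were higher and 0.745% lower. With the presence of Y-linked counts as a covariate 2 members were higher, Hk1 and Hk2, beside 1.15% of all genes.

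**Figure D1:**
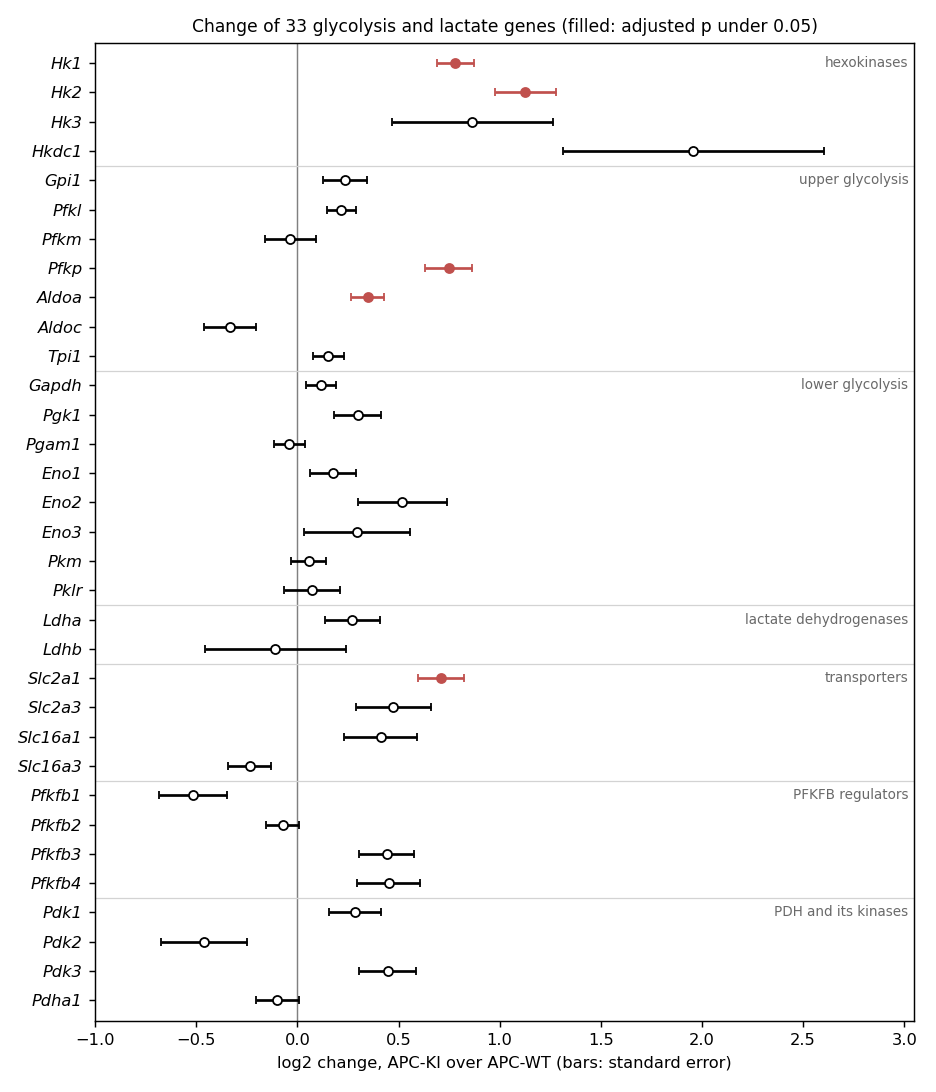
The log2 change of each of the 33 genes, APC-KI over APC-WT, is plotted in pathway order with its standard error (n = 3 tumours a group), and filled points mark an adjusted p under 0.05. The 5 filled points are Hk1, Hk2, Pfkp, Aldoa and Slc2a1, and the genes from Gapdh to Pklr lie between -0.04 and 0.52.

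Promoter sequences are shown for Slc2a1, Hk1, Hk2 and Pfkp, the 4 genes with the smallest p, and for Ldha, which did not pass the test, so that the motifs of called and uncalled genes can be seen side by side. The windows are RefSeq sequences of GRCm38.p6, each from 250 bases before to 50 bases after an annotated gene start, read 5′ to 3′ along the gene. They lie at chr4:119108495-119108794 on the plus strand for Slc2a1, chr10:62340372-62340671 on the minus strand for Hk1, chr6:82774405-82774704 on the minus strand for Hk2, chr13:6648722-6649021 on the minus strand for Pfkp and chr7:46845554-46845853 on the plus strand for Ldha. Capitals mark the letters ACGTG or their reverse complement CACGT, a form of the core at which hypoxia-inducible factors bind. They also mark the letters TCAAAG or CTTTGA, the core at which TCF/LEF factors bind. GCGTG, the other form of the hypoxia core, was neither searched for nor marked, and it occurs in the Pfkp window among others.
Slc2a1: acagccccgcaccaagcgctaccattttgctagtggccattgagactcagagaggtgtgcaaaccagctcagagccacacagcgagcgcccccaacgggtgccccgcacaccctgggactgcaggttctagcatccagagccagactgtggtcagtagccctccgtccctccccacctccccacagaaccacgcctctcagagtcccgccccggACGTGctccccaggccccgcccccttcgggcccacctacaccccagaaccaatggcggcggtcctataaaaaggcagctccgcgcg
Hk1: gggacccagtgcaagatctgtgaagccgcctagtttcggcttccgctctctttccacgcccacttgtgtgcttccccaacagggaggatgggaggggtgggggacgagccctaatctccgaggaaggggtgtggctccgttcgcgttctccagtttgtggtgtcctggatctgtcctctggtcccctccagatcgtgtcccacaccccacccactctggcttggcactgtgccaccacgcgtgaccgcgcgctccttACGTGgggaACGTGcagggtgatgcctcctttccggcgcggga
Hk2: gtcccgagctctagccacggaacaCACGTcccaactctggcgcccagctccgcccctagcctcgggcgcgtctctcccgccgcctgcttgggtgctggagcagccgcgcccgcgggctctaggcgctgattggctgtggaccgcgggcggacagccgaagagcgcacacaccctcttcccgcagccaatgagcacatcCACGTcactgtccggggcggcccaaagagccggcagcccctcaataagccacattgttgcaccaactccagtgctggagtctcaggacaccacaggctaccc
Pfkp: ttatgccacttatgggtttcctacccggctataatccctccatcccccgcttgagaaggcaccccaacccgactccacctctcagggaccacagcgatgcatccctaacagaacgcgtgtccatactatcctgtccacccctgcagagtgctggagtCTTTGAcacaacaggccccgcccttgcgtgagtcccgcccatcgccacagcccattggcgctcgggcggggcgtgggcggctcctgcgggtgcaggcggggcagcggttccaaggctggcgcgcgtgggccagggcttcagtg
Ldha: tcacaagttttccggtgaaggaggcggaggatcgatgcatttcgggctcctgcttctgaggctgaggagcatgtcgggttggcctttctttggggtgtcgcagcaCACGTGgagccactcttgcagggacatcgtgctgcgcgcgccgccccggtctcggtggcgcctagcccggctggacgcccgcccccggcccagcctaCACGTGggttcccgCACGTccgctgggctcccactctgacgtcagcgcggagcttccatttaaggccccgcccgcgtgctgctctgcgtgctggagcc

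Hk1 and Ldha each have another annotated start, and the start printed is the one whose window holds ACGTG. The count of ACGTG in these 2 printed windows therefore could not be 0. The unprinted window of Hk1 held neither ACGTG nor the TCF/LEF core, and that of Ldha held the TCF/LEF core 1 time. ACGTG was found 2 times in each of the printed windows of Hk1 and Hk2 and 1 time in that of Slc2a1. It was found 0 times in that of Pfkp, which held the TCF/LEF core 1 time. The printed window of Ldha held 5 ACGTG matches over both strands. Among them are 2 copies of the palindrome CACGTG, a MYC-type E-box that contains ACGTG on each strand. Of the 33 genes, 32 had promoter windows, 52 in all, and Slc2a3 had none. With both strands searched and any of a gene's starts counted, ACGTG was present in 18 of 32 members, among them 4 of the 5 called genes and 14 of 27 that were not called. It was present in 27.4% of the 12887 tested genes that had a window. Members had more windows a gene (52 for 32) than all genes with a window did (32851 for 27025). Counting any start thus gave members more chances of a match than all genes had, also for the motifs below. Windows per gene among the tested genes alone are not given here. CACGTG occurred in 6 members (18.8%) and 0 called ones, beside 10.8% of tested genes, and TCAAAG in 8 members (25.0%) and 1 called one, Pfkp, beside 15.4%. These matches describe letters in a window and not sites in use.

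Glucose enters through Slc2a1 and Slc2a3, facilitative transporters better known as GLUT1 and GLUT3. Slc2a1 (ENSMUSG00000028645), the common basal transporter, had 200.9, 187 and 157.5 CPM in APC-KI tumours, against 109, 103 and 122 CPM in APC-WT tumours. Every APC-KI tumour was above every APC-WT tumour, and the means were 182 ± 22.2 CPM in APC-KI and 111 ± 10.1 CPM in APC-WT (SD, n = 3 each). Slc2a1 was 1.63-fold higher, at 0.71 ± 0.11 on the log2 scale (SE, edgeR adjusted p = 0.0109). Slc2a1 did not pass without APC-WT replicate 2 (log2 change 0.65, edgeR adjusted p = 0.051) or with Y-linked counts as a covariate (0.57 ± 0.16, edgeR adjusted p = 0.109). Over the 4 libraries lacking Y-linked counts the change was 0.57 ± 0.17 and also did not pass. Slc2a3, a high-affinity form typical of neurons and leukocytes, was rarer, at 2.72 ± 0.47 CPM per kilobase in APC-KI and 1.96 ± 0.26 in APC-WT tumours, where Slc2a1 had 55.8 ± 6.81 in APC-KI and 34.1 ± 3.09 in APC-WT. Its log2 change of 0.47 ± 0.19 did not pass (edgeR adjusted p = 0.113), although its groups did not overlap.

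The hexokinases held both of the smallest adjusted p values among the 33 genes. Hk2 (ENSMUSG00000000628), the inducible hexokinase of muscle, fat and many tumours, had 653.5, 668 and 499 CPM in APC-KI tumours, against 261, 324 and 249 CPM in APC-WT tumours. The lowest APC-KI tumour, replicate 3, was well above the highest APC-WT tumour. Hk2 was 2.18-fold higher, with a log2 change of 1.13 ± 0.15 (SE, edgeR adjusted p = 0.00732). Hk1 (ENSMUSG00000037012), the form that most tissues use and that docks on mitochondria, had 196, 200.5 and 168 CPM in APC-KI tumours, against 117, 108 and 104 CPM in APC-WT tumours. The groups again did not overlap, and Hk1 was 1.72-fold higher, at 0.78 ± 0.09 on the log2 scale (SE, edgeR adjusted p = 0.00595). Both hexokinases passed in 16 of 17 alternative settings, the exception being the 4 libraries lacking Y-linked counts, where the changes were 1.28 ± 0.21 for Hk2 (edgeR adjusted p = 0.0584) and 0.85 ± 0.15 for Hk1 (edgeR adjusted p = 0.0616).

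Hk3, a hexokinase of myeloid cells, had 10.9, 23.2 and 11.1 CPM in APC-KI tumours, against 6.00, 6.70 and 12.1 CPM in APC-WT tumours. APC-KI replicate 2 and APC-WT replicate 3 were the high tumours of their groups, which overlapped, and the log2 change of 0.86 ± 0.40 did not pass (edgeR adjusted p = 0.163). The summed level of 10 macrophage and monocyte markers was 418.5 to 563 CPM in APC-KI and 255 to 319 CPM in APC-WT tumours, and that of 10 neutrophil markers 977 to 1417 CPM in APC-KI and 547.5 to 709.8 CPM in APC-WT tumours. Their part in the level of Hk3 was not tested. Exons of Hk3 overlap those of Unc5a on the opposite strand, with 1339 counts for Unc5a beside 3835 for Hk3. Hkdc1, another hexokinase with a domain structure like that of Hk1, was nearly absent, at 2.21, 2.93 and 0.62 CPM in APC-KI and 0.33, 0.33 and 0.82 CPM in APC-WT tumours. APC-KI replicate 3 lay below APC-WT replicate 3, and the log2 change of 1.96 ± 0.64 did not pass (edgeR adjusted p = 0.0742), while DESeq2 called it and edgeR called it without APC-KI replicate 3.

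Phosphofructokinase, the committing step, is built from subunits named after liver (Pfkl), muscle (Pfkm) and platelet (Pfkp). Pfkp (ENSMUSG00000021196) had 306.5, 332.5 and 248 CPM in APC-KI tumours, against 170.1, 177 and 181 CPM in APC-WT tumours. The groups were apart, with little spread among the APC-WT tumours, and Pfkp was 1.68-fold higher, at 0.75 ± 0.11 on the log2 scale (SE, edgeR adjusted p = 0.0096). Over the 4 libraries lacking Y-linked counts it was 0.70 ± 0.19 (edgeR adjusted p = 0.131). Pfkl had a log2 change of 0.22 ± 0.07 (edgeR adjusted p = 0.074) and Pfkm one of -0.04 ± 0.13 (edgeR adjusted p = 0.857), and neither passed. Per kilobase of transcript, Pfkp made up 53.9, 56.9 and 50.8% of the phosphofructokinase level in APC-KI tumours, against 44.5, 43.8 and 45.4% in APC-WT tumours. Pfkl made up 43.0 ± 2.68% in APC-KI and 51.1 ± 0.77% in APC-WT tumours. By this measure, which rests on approximate lengths, Pfkp led in APC-KI tumours and Pfkl in APC-WT tumours. In counts, Pfkp over Pfkl was 1.376, 1.575 and 1.243 in APC-KI tumours. It was 0.972, 0.938 and 1.0 in APC-WT tumours, where the 2 were nearly level. Exons of Pfkp overlap those of Pitrm1 on the opposite strand, and exons of Pfkm those of Senp1, which had 31381 and 24311 counts over the 6 libraries, beside 78356 for Pfkp and 3998 for Pfkm. As the strand setting of the counting is not given in the sources used here, some reads of these pairs may be exchanged.

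Before and after that step, Gpi1, which turns glucose-6-phosphate into fructose-6-phosphate, and Tpi1, which interconverts the triose phosphates, had log2 changes of 0.23 ± 0.11 and 0.15 ± 0.08 that did not pass (edgeR adjusted p = 0.161 and 0.194). Aldoa (ENSMUSG00000030695), the aldolase of muscle and most other cells, had 921, 916 and 808 CPM in APC-KI tumours, against 701.5, 708 and 668 CPM in APC-WT tumours. The change was small beside that of the hexokinases, at 1.27-fold, with a log2 change of 0.35 ± 0.08 (SE, edgeR adjusted p = 0.0302), but the groups did not overlap. Aldoa was the least stable of the 5 calls and held in 8 of 17 settings. It was lost with library totals in place of TMM factors (log2 change 0.23, edgeR adjusted p = 0.0587), over the 4 libraries lacking Y-linked counts (0.40, edgeR adjusted p = 0.199), and without any of APC-KI replicates 1 and 2 or the 3 APC-WT replicates. It was also lost with Y-linked counts as a covariate and with the replicate number as a block. Aldoc, the aldolase of brain, had 29.5, 27.2 and 30.81 CPM in APC-KI tumours, against 42.2, 30.82 and 37.2 CPM in APC-WT tumours. APC-KI replicate 3 and APC-WT replicate 2 were nearly level, and the log2 change of -0.33 ± 0.13 did not pass (edgeR adjusted p = 0.11).

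**Figure D2:**
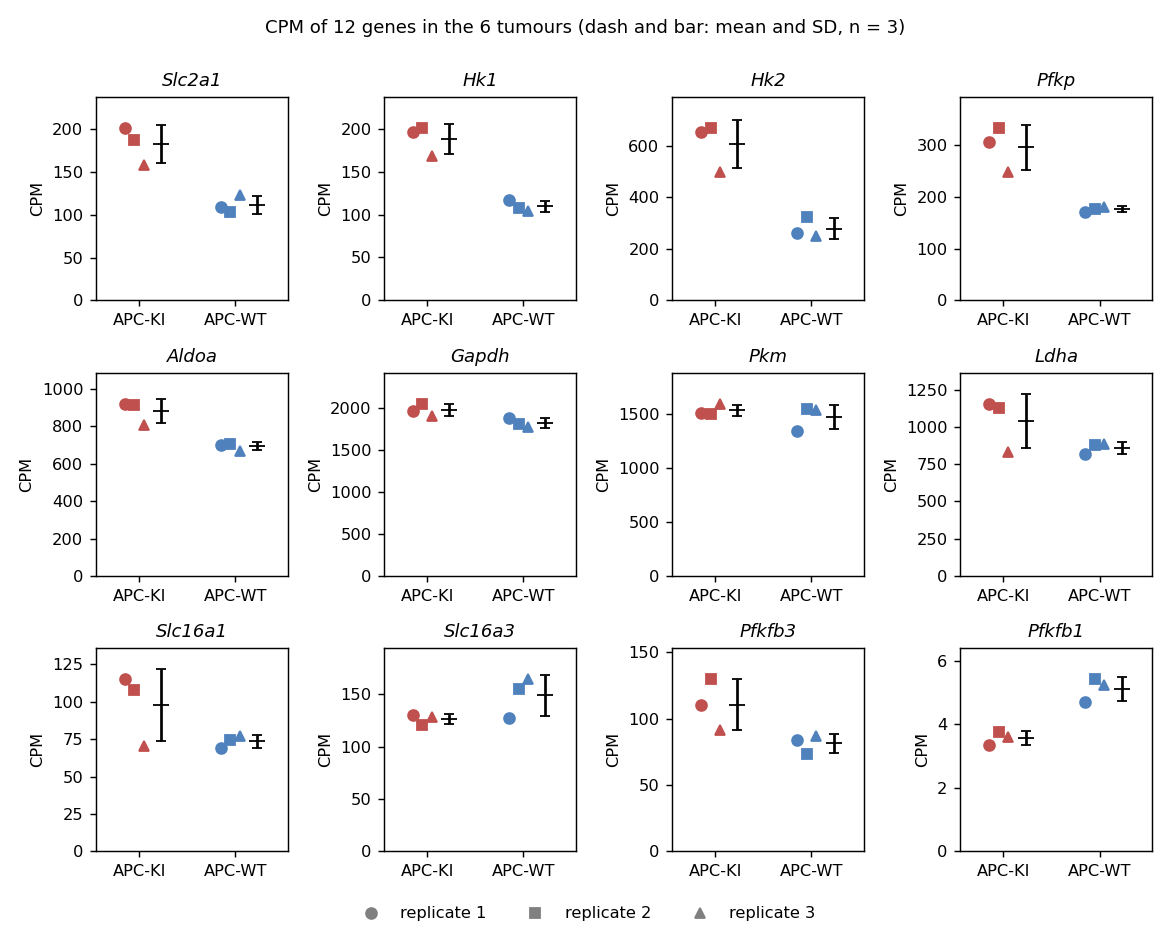
CPM of 12 genes is plotted for each tumour from 0, with APC-KI at the left and APC-WT at the right of each panel, a symbol per replicate, and the mean and SD of 3 tumours as a dash and bar. The groups are apart for Slc2a1, Hk1, Hk2, Pfkp and Aldoa, whereas for Ldha and Slc16a1 APC-KI replicate 3 lies among the APC-WT tumours, at 829.5 and 70.5 CPM.

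The pay-off phase showed 0 calls among 8 genes, with log2 changes from -0.04 to 0.52 and a median of 0.15 (edgeR, 1 of the 8 at an unadjusted p under 0.05). With 12.5% of all genes called higher and 7.63% lower, 0 of 8 lay near the background. Limma-voom and DESeq2 also called 0 of them, beside 12.9% and 15.1% of all genes higher and 7.55% and 10% lower. Gapdh, which oxidizes glyceraldehyde-3-phosphate and is often used as a loading control, was the most abundant of the 33 genes per length, at 1394 ± 51.4 CPM per kilobase in APC-KI and 1285 ± 40.2 in APC-WT tumours. In CPM it had 1969, 2057 and 1912 in APC-KI tumours, against 1888, 1809 and 1777 in APC-WT tumours, and its log2 change was 0.12 ± 0.07 (edgeR adjusted p = 0.279). With library totals in place of TMM factors its change was 0.001. Pkm, the pyruvate kinase of tumours and most other tissues, had 1508, 1501 and 1598 CPM in APC-KI tumours, against 1345, 1547 and 1537 CPM in APC-WT tumours. The groups overlapped, at a log2 change of 0.06 ± 0.09 (edgeR adjusted p = 0.657). The gene table gives no measure of its splice forms. Exons of Pkm overlap those of Gm49759 on the same strand, with 22055 counts for Gm49759 beside 506655 for Pkm.

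Pgk1, which makes the first ATP of the pathway, had 606, 572 and 464 CPM in APC-KI tumours, against 466, 457 and 413 CPM in APC-WT tumours. APC-KI replicate 3 fell just below APC-WT replicate 1, and the log2 change of 0.30 ± 0.12 did not pass (edgeR adjusted p = 0.11). It passed without that APC-KI tumour, the lowest of its group (0.39, edgeR adjusted p = 0.0328), and in none of the other 16 settings. Pgam1, which moves the phosphate group of phosphoglycerate, had a log2 change of -0.04 ± 0.07, and Eno1, the enolase of most cells, one of 0.18 ± 0.11 (edgeR adjusted p = 0.729 and 0.288). Eno2 and Eno3, the enolases of neurons and muscle, were far rarer per length than Eno1. In CPM per kilobase Eno1 had 439 ± 52.6 in APC-KI and 389 ± 29.7 in APC-WT tumours, Eno2 1.67 ± 0.24 in APC-KI and 1.17 ± 0.22 in APC-WT tumours, and Eno3 15.9 ± 0.88 in APC-KI and 12.9 ± 4.98 in APC-WT tumours. Eno2 did not overlap between the groups but did not pass (log2 change 0.52 ± 0.22, edgeR adjusted p = 0.135). Eno3 varied most among APC-WT tumours, from 13.2 to 28.6 CPM, and its log2 change of 0.30 ± 0.26 did not pass (edgeR adjusted p = 0.445). The change of Eno3 was 0.909 with Y-linked counts as a covariate (edgeR adjusted p = 0.112) and 0.907 over the 4 libraries lacking them. Pklr, the pyruvate kinase of liver and red cells, had a log2 change of 0.07 ± 0.14 and made up 4.66 ± 0.15% of the pyruvate kinase level per length in APC-KI and 4.59 ± 0.53% in APC-WT tumours.

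**Figure D3:**
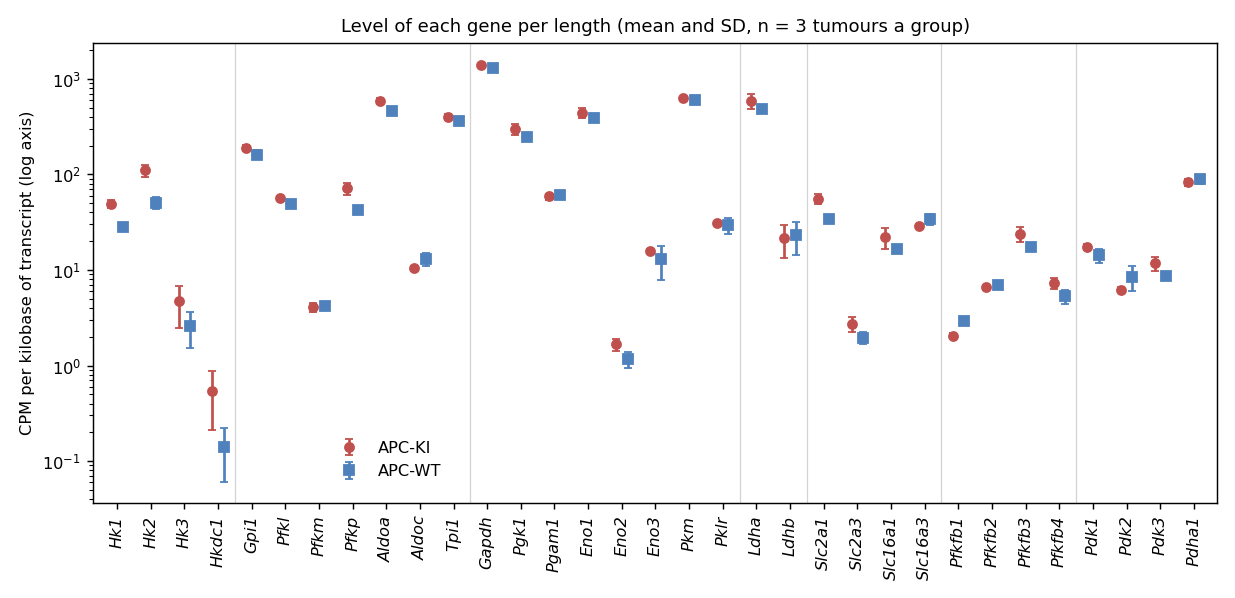
Mean CPM per kilobase of a principal transcript is plotted on a log axis for the 33 genes in pathway order, with APC-KI left of APC-WT and bars for the SD of 3 tumours. Gapdh is highest at 1394 in APC-KI and 1285 in APC-WT, Hkdc1 lowest at 0.55 in APC-KI and 0.14 in APC-WT, and Gapdh, Pgk1, Eno1, Pkm and Ldha stand above all hexokinases and phosphofructokinases.

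Lactate is made from pyruvate by Ldha, the muscle-type dehydrogenase, and Ldhb is the heart-type form that favours the reverse reaction. Ldha had 1155, 1129 and 829.5 CPM in APC-KI tumours, against 815, 878 and 886 CPM in APC-WT tumours. APC-KI replicates 1 and 2 were high, and APC-KI replicate 3 fell among the APC-WT tumours. The log2 change of 0.27 ± 0.14 did not pass (edgeR adjusted p = 0.19). Leaving out that tumour, the lowest of its group, gave 0.40 (edgeR adjusted p = 0.0223). Ldha did not pass in the other 16 of 17 settings. Ldhb had 25.6, 18.8 and 39.4 CPM in APC-KI tumours, against 43.0, 25.8 and 21.5 CPM in APC-WT tumours. It varied widely within each group, and its change of -0.11 ± 0.35 was positive in 4 of the 17 settings. Ldha made up 97.1, 97.8 and 94.0% of the lactate dehydrogenase level per length in APC-KI tumours, against 93.3, 96.2 and 96.8% in APC-WT tumours, so the 2 groups overlapped.

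The proton-coupled carriers Slc16a1 (MCT1), which moves lactate, pyruvate and butyrate in either direction, and Slc16a3 (MCT4), which mainly exports lactate, did not pass. Slc16a1 had 115, 108 and 70.5 CPM in APC-KI tumours, against 69.1, 74.3 and 77.3 CPM in APC-WT tumours. Only APC-KI replicates 1 and 2 were above the APC-WT range, with a log2 change of 0.41 ± 0.18 (edgeR adjusted p = 0.145). It became 0.59 without APC-KI replicate 3, the low tumour of its group (edgeR adjusted p = 0.00798). Slc16a1 did not pass in the other 16 settings. Slc16a3 had 130.5, 121 and 128 CPM in APC-KI tumours, against 127, 155 and 164 CPM in APC-WT tumours. Its log2 change of -0.24 ± 0.10 missed the threshold (edgeR adjusted p = 0.15), and without APC-WT replicate 1, the low tumour of its group, it was -0.34 (edgeR adjusted p = 0.0422). With library totals in place of TMM factors it was -0.35 (edgeR adjusted p = 0.0495). Slc16a3 did not pass in the other 15 settings. Within each tumour, the count ratio of Slc16a1 to Slc16a3 was 0.88, 0.89 and 0.55 in APC-KI tumours, against 0.54, 0.48 and 0.47 in APC-WT tumours. All 3 APC-KI ratios were above the APC-WT ratios, replicate 3 by little.

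In all, 9 count ratios of related genes were compared within tumours, which removes library scaling. The exact two-sided permutation test of 3 against 3 cannot go below p = 0.1, and no ratio could pass. For 5 ratios the groups did not overlap and p was 0.1, or 0.18 adjusted over the 9. The mean log2 differences, APC-KI minus APC-WT, were 0.61 for Slc16a1 over Slc16a3, 0.52 for Pfkp over Pfkl, -0.26 for Pfkm over Pfkl, -0.67 for Aldoc over Aldoa and -0.72 for Pdk2 over Pdk1. Pfkm over Pfkl was -0.13 without APC-KI replicate 1. Its groups were barely apart, with count ratios of 0.06341 in APC-KI replicate 3 and 0.06363 in APC-WT replicate 2. Hk1 over Hk2 was -0.35 (exact permutation p = 0.2), with APC-KI replicate 3 and APC-WT replicate 2 nearly level. Ldha over Ldhb differed by 0.37 (exact permutation p = 0.5), and rested on single tumours. It was 0.048 when APC-KI replicate 2 was left out, 0.80 when APC-KI replicate 3 was, 0.04 when APC-WT replicate 1 was and 0.60 when APC-WT replicate 3 was. The other differences were 0.24 for Slc2a1 over Slc2a3 (exact permutation p = 0.2) and 0.025 for Pfkfb4 over Pfkfb3 (exact permutation p = 0.9).

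**Figure D4:**
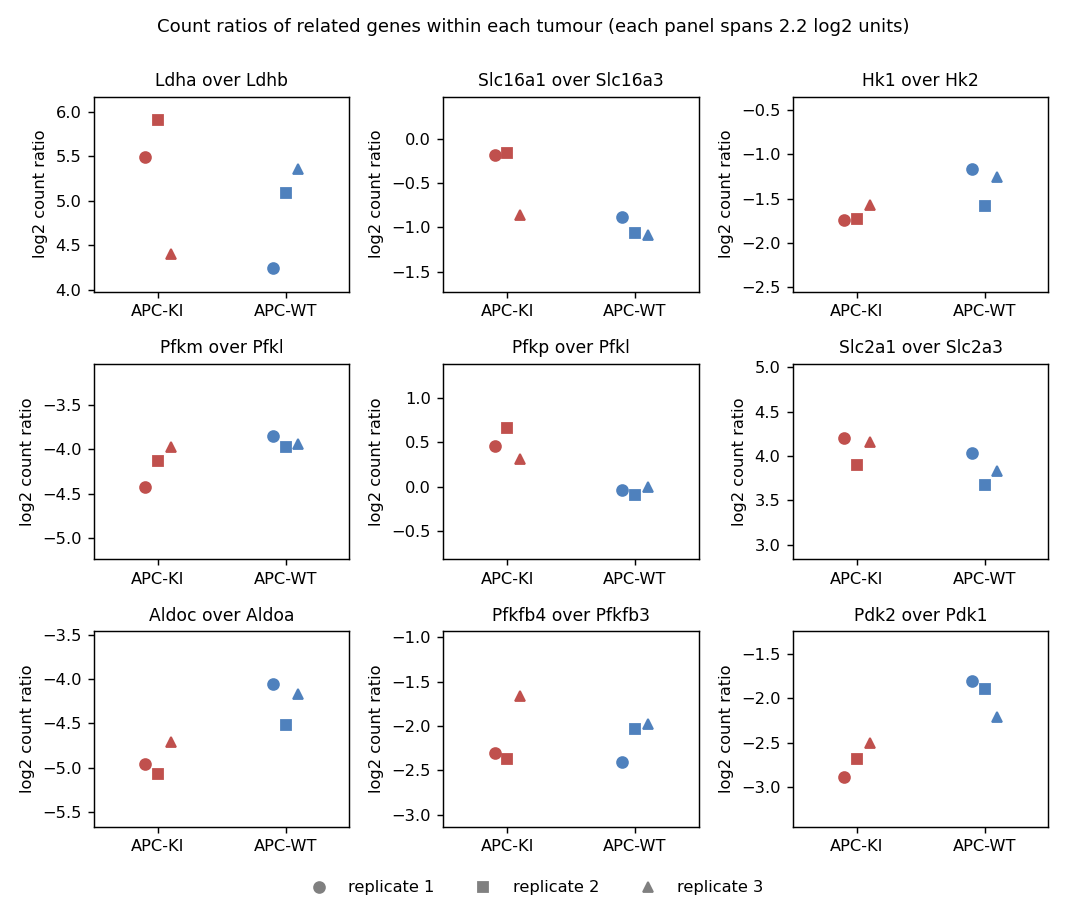
The log2 count ratio of 9 pairs of related genes is plotted for each tumour, APC-KI left of APC-WT, with a symbol per replicate and the same span in each panel. The groups are apart for Pfkp over Pfkl, Slc16a1 over Slc16a3, Pfkm over Pfkl, Aldoc over Aldoa and Pdk2 over Pdk1, and overlap widely for Ldha over Ldhb. For Pfkm over Pfkl and Slc16a1 over Slc16a3 the gap is very narrow.

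The PFKFB enzymes make and remove fructose-2,6-bisphosphate, the strongest activator of phosphofructokinase, and none of the 4 passed in edgeR (2 higher and 1 lower at an unadjusted p under 0.05) or limma-voom, near the 12.5% higher and 7.63% lower among all genes in edgeR. DESeq2 called Pfkfb3 and Pfkfb4 higher and Pfkfb1 lower, where 15.1% and 10% of all genes were. Pfkfb3, the form with the strongest kinase bias, had 110.2, 129.6 and 91.6 CPM in APC-KI tumours, against 84.2, 73.5 and 86.5 CPM in APC-WT tumours. Pfkfb4 had 22.3, 24.9 and 28.9 CPM in APC-KI tumours, against 15.9, 17.9 and 22.0 CPM in APC-WT tumours. For both genes all APC-KI tumours were above all APC-WT tumours, by a narrow margin, and the log2 changes were 0.44 ± 0.14 for Pfkfb3 and 0.45 ± 0.16 for Pfkfb4 (edgeR adjusted p = 0.0626 and 0.083). Pfkfb3 passed without APC-KI replicate 3 (0.55, edgeR adjusted p = 0.0253) and with no filter on low counts (edgeR adjusted p = 0.047), and Pfkfb4 passed without APC-WT replicate 3 (0.59, edgeR adjusted p = 0.0388). Pfkfb1, the liver and muscle form, was rare and had 3.34, 3.77 and 3.61 CPM in APC-KI tumours, against 4.69, 5.42 and 5.24 CPM in APC-WT tumours. Its groups did not overlap, and its log2 change of -0.52 ± 0.17 was the most negative of the 33 (edgeR adjusted p = 0.0725), and with library totals in place of TMM factors it was -0.63 (edgeR adjusted p = 0.0411). Exons of Pfkfb1 overlap those of Apex2 on the opposite strand, which had 4778 counts beside 1475 for Pfkfb1. Pfkfb2, best known from heart, had a log2 change of -0.07 ± 0.08 (edgeR adjusted p = 0.535), and its exons overlap those of Yod1 on the opposite strand (5494 counts beside 10131 for Pfkfb2).

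Pyruvate enters the citric acid cycle through pyruvate dehydrogenase, of which Pdha1 encodes a catalytic subunit, and the kinases Pdk1 to Pdk4 switch that complex off. Pdha1 had 258, 225 and 224.5 CPM in APC-KI tumours, against 284, 247 and 227.5 CPM in APC-WT tumours, with a log2 change of -0.10 ± 0.11 (edgeR adjusted p = 0.522). Exons of Pdha1 overlap those of Map3k15 on the opposite strand (5714 counts beside 83023 for Pdha1). Pdk1, a hypoxia-induced kinase, had 97.3, 88.0 and 84.2 CPM in APC-KI tumours, against 88.3, 68.1 and 65.0 CPM in APC-WT tumours. Its groups overlapped through APC-WT replicate 1, and the log2 change of 0.28 ± 0.13 did not pass (edgeR adjusted p = 0.159). Without that tumour, the highest of its group, it was 0.43 (edgeR adjusted p = 0.0346). Pdk1 did not pass in the other 16 settings. Pdk2 had 13.2, 13.7 and 14.8 CPM in APC-KI tumours, against 25.2, 18.3 and 14.0 CPM in APC-WT tumours (log2 change -0.46 ± 0.21, edgeR adjusted p = 0.162). Single APC-WT tumours set this value: it was -0.22 without APC-WT replicate 1 (edgeR adjusted p = 0.359) and -0.65 without APC-WT replicate 3 (edgeR adjusted p = 0.0412). With the presence of Y-linked counts as a covariate it was -0.007. Pdk3 had 25.5, 28.6 and 20.6 CPM in APC-KI tumours, against 17.5, 17.4 and 19.9 CPM in APC-WT tumours, and its log2 change was 0.45 ± 0.14 (edgeR adjusted p = 0.0671). DESeq2 called Pdk3 higher, as did edgeR without APC-KI replicate 3 (0.56, edgeR adjusted p = 0.0289). Pdk4, a kinase outside the 33 genes that fasting and fatty acids induce in other tissues, was called lower. It had 7.82, 7.10 and 8.72 CPM in APC-KI tumours, against 31.7, 15.0 and 21.2 CPM in APC-WT tumours, with groups well apart (log2 change -1.52 ± 0.27, edgeR adjusted p = 0.0147). Per length, Pdk1 led Pdk3 and Pdk2 in APC-KI tumours, at 17.3 ± 1.30, 11.8 ± 1.91 and 6.19 ± 0.37 CPM per kilobase, while in APC-WT tumours Pdk2 (8.53 ± 2.53) and Pdk3 (8.65 ± 0.68) did not differ beyond their spread and stood below Pdk1 (14.2 ± 2.45).

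The wider pathway was read from lists of other genes. Of the 13 genes for pyruvate entry into mitochondria, Pdk4 was called lower and pyruvate carboxylase, Pcx, higher (log2 change 0.55 ± 0.11, edgeR adjusted p = 0.0182). With 12.5% of all genes called higher and 7.63% lower, 1 of 13 in each direction lay near the background. Of 21 other isozymes and carriers tested, 3 were higher and 1 lower, beside 12.5% and 7.63% of all genes. Among them, Slc2a13, a proton-coupled inositol transporter, and Slc2a4, the insulin-regulated transporter of muscle and fat, rose by 1.11 and 0.76 on the log2 scale, and the ADP-dependent glucokinase Adpgk fell by 0.27 (edgeR adjusted p = 0.0162, 0.0384 and 0.0449).

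Glucose-6-phosphate also feeds the pentose phosphate pathway and glycogen. Of 10 pentose phosphate genes tested, 3 were higher and 0 lower, beside 12.5% and 7.63% of all genes (0 lower also at an unadjusted p under 0.05 in edgeR). They were H6pd, the dehydrogenase of the endoplasmic reticulum, Tkt (transketolase) and Pgd, with log2 changes of 0.83 ± 0.15, 0.32 ± 0.07 and 0.38 ± 0.11 (edgeR adjusted p = 0.016, 0.0276 and 0.0486). Of 14 glycogen genes 5 were higher and 0 lower, beside the same shares of all genes (1 lower at an unadjusted p under 0.05 in edgeR). All 3 glycogen phosphorylases were among them, Pygl at 0.60, Pygm at 1.16 and Pygb at 0.32 on the log2 scale, as were Ugp2 at 0.57 and Pgm2 at 0.51 (edgeR adjusted p between 0.0149 and 0.0442). Pygm, the muscle form, stood at 2.92 ± 0.35 CPM in APC-KI and 1.30 ± 0.21 CPM in APC-WT tumours. None of 6 gluconeogenesis genes passed (edgeR, 0 higher and 2 lower at an unadjusted p under 0.05). At that unadjusted threshold 21.2% of all genes were higher and 16.7% lower.

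Among 24 genes of the hypoxia pathway, 6 were higher and 1 lower, beside 12.5% and 7.63% of all genes, and the median log2 change was 0.19, against -0.016 over all genes. Epas1, which encodes HIF-2 alpha, had 176, 181 and 119 CPM in APC-KI tumours, against 83.0, 78.4 and 76.9 CPM in APC-WT tumours (log2 change 1.00 ± 0.16, edgeR adjusted p = 0.011). Hif1a rose by 0.54 ± 0.14 and Adm, a vasodilator peptide, by 0.99 (edgeR adjusted p = 0.0402 and 0.017). Loxl2, a lysyl oxidase of the extracellular matrix, and Ero1l, an oxidase of the endoplasmic reticulum, rose by 0.85 and 0.51 on the log2 scale (edgeR adjusted p = 0.0315 and 0.0344), and Car9, a carbonic anhydrase, was also called higher. Vegfa, the angiogenic factor, was the 1 that fell, by 0.45 on the log2 scale (edgeR adjusted p = 0.0219). Of 18 regulators of glycolysis 6 were higher and 3 lower, where 12.5% and 7.63% of all genes were. Myc, which drives many glycolytic genes in tumours, had 86.0, 82.1 and 80.5 CPM in APC-KI tumours, against 146, 118.5 and 115 CPM in APC-WT tumours (log2 change -0.61 ± 0.10, edgeR adjusted p = 0.013). Prkaa2, a catalytic subunit of the energy sensor AMPK, rose by 1.39 ± 0.18, Mlx, a partner of the glucose-sensing factors, by 0.72 ± 0.11, and Arrdc4, a brake on glucose uptake, by 0.80 ± 0.10 (edgeR adjusted p = 0.00674, 0.00941 and 0.00616). Klf4, a factor of differentiated epithelium, rose by 0.99 and Trp53, the p53 tumour suppressor, fell by 0.36 on the log2 scale (edgeR adjusted p = 0.0236 and 0.0163). Mlxip and Esrra were also called higher and Rptor lower.

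Transcripts that mark other cell types also differed between the groups. The counts called below stand beside 12.5% of all genes called higher and 7.63% called lower in edgeR. The summed level of 15 smooth muscle markers, of which 14 were higher, was 1153 to 1824 CPM in APC-KI and 269 to 580 CPM in APC-WT tumours. Of 12 absorptive colonocyte markers 8 were higher, with sums of 9287 to 12100 CPM in APC-KI and 3187 to 3573 CPM in APC-WT tumours. Of 8 intestinal stem cell markers 5 were lower, with sums of 495 to 631 CPM in APC-KI and 972 to 1315 CPM in APC-WT tumours. Of 9 pan-epithelial markers 5 were higher, with sums of 10120 to 11980 CPM in APC-KI and 8131 to 9156 CPM in APC-WT tumours. Epithelial transcripts were abundant in all 6 libraries, but their sums were higher in APC-KI tumours, without overlap. Krt20 is in both this list and the colonocyte list. Fibroblast markers (4 of 10 higher) reached 4832 to 6043 CPM in APC-KI and 1477 to 4747 CPM in APC-WT tumours, and B and plasma cell markers (6 of 10 higher) 1480 to 2532 CPM in APC-KI and 771 to 969 CPM in APC-WT tumours. T and NK cell (7 of 12 higher, 1 lower) and endothelial markers (5 of 10 higher) also had higher sums in APC-KI tumours, and enteric neuron and glia markers (4 of 13 tested higher) had sums that overlapped, 42.2 to 60.6 CPM in APC-KI and 31.2 to 51.8 CPM in APC-WT tumours. Of 6 adipocyte markers 3 were tested and 2 higher, with sums of 13.9 to 16.7 CPM in APC-KI and 7.32 to 10.2 CPM in APC-WT tumours. Skeletal muscle markers (1 of 5 tested higher) summed to under 10 CPM in every library, and Myh4 was at 0 throughout. Erythroid markers (2 of 5 tested lower) summed to 8.01 to 34.8 CPM in APC-KI and 52.7 to 117.9 CPM in APC-WT tumours. The part of these cell types in the levels of Hk1, Hk2, Pfkp, Aldoa and Slc2a1 was not tested.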

How the data were processed

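RNA was sequenced from 6 mouse colon tumours, 3 APC-KI and 3 APC-WT, grouped by sample title. Per the labels' protocols, libraries were made with a stranded poly(A) mRNA kit. The submitters' processing notes name STAR, Trim Galore 0.6.4 with cutadapt 2.5, DESeq2 1.37.6, and the builds GRCm38 and mm10. Which program counted reads, with which strand setting and gene models, is not given in the sources used here. Unnormalized counts were deposited by the authors, whole numbers with a row for each Ensembl identifier. Symbols and transcript lengths came from GENCODE M21, which named 52093 of 53700 identifiers; only 35 carried the same version suffix, so the counting used other gene models and levels per kilobase are approximate (longest transcript of the best APPRIS rank).

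All genes were fitted with edgeR 4.0.16 in R 4.3.3 (filterByExpr, TMM, estimateDisp, robust glmQLFit and glmQLFTest, group as sole term), with fold changes APC-KI over APC-WT and Benjamini-Hochberg adjustment over 19127 genes at 0.05. The steps were tested on simulated data. CPM are counts over TMM-scaled library sizes of the tested genes. Ratios used counts plus 0.5. Alternatives were DESeq2 1.42.0, limma 3.58.1 (voom), other scalings and filters, a replicate block, each library left out, and the handling of Y-linked counts.

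No 2 libraries of a group were alike within counting error (chi-square 36.4 to 104 per gene), and each was treated as a replicate. That check cannot show that the tumours came from separate mice. All members are reported, those past the threshold with the value in every library; of other lists, up to 6 members past the threshold by smallest p. The list of other isozymes and carriers had 3 genes higher and 1 lower, fewer than that limit of 6. Of these, 1 gene called higher is nevertheless neither named nor given values here. Members and lists were chosen with earlier results of these data known. Annotated pseudogenes and close copies named after members, such as Gapdh-ps14, Pgk1-rs7 and Pgam1-ps2, held at most 0.452% of the member's counts, but reads may be shared with unnamed copies, so Gapdh, Aldoa, Pgk1, Pgam1, Eno1 and Ldha carry that uncertainty.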

Additional observations from a re-analysis of the deposited data

How the results depend on the processing

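Hk1, Hk2, Pfkp, Slc2a1 and Aldoa kept a positive change in all 17 alternative settings, with ranges of 0.66 to 0.85, 1.01 to 1.29, 0.63 to 0.85, 0.57 to 0.79 and 0.23 to 0.40 on the log2 scale. The count of members called higher was 9 with DESeq2, 2 with the presence of Y-linked counts as a covariate (Hk1 and Hk2) and 0 over the 4 libraries lacking Y-linked counts, and ran from 3 to 11 with single libraries left out. The count called lower was 1 with DESeq2, 3 with library totals only (Aldoc, Pfkfb1 and Slc16a3), and 0 to 1 with single libraries left out. The median of the members was 0.152 with library totals only, which moved the median of all genes to -0.132, and 0.21 to 0.291 with single libraries left out. For each of these the cause was not tested. The fit over 4 libraries and the fits with single libraries left out have fewer samples, and the covariate fit has a further term.

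Uncalled genes near 0 changed sign in places. With library totals only Pkm was -0.058 and Pklr -0.044. With Y-linked counts as a covariate Pkm was -0.001, Pklr -0.023, Ldhb 0.376, Pfkfb2 0.005 and Pdha1 0.053, and over the 4 lacking them Pkm was -0.004, Pklr -0.026, Ldhb 0.373, Pfkfb2 0.002 and Pdha1 0.051. With single libraries left out Pfkm ran from -0.105 to 0.047, Pgam1 from -0.078 to 0.009, Pkm from -0.008 to 0.088, Pklr from -0.078 to 0.178 and Ldhb from -0.453 to 0.238. The log2 ratio of Pfkfb4 over Pfkfb3 ran from -0.2 to 0.156 with single libraries left out. No other ratio changed sign, also with an offset of 0.1.

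The replicate numbers did not pair the libraries: deviations of same-numbered libraries correlated at 0.035, -0.068 and -0.182, and 1 of 3 APC-KI libraries correlated best with its own number. With the replicate block 4 members were higher and 0 lower, Aldoa being lost (log2 change 0.35, edgeR adjusted p = 0.081), and 1660 genes were called in all in place of 3847. The rarest member, Hkdc1, had 19 to 153 counts a library.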
